A study of Mus musculus with 10 samples.

Results

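The goblet cell mucus genes Muc2, Fcgbp, Clca1, Zg16, Tff3, Spink4, Klk1, Agr2 and Bcas1 are the subject here, 9 of the 22180 genes measured in sorted mouse intestinal cells. They were taken by symbol from the array annotation, all 9 were found, and each is read from the probe set whose mean over all 10 arrays was highest, with no filter on dim values. The data compare crypt cells labelled as expressing Flattop (4 arrays) with stem cells of the intestine that were high in Lgr5 and GFP (6 arrays). Flattop is the product of Cfap126, a gene linked to planar cell polarity and cilia. The Flattop cells came from FltpT2AiCre mice crossed with Gt(ROSA)26mTmG mice, on a mixed C57BL/6J, CD1 and 129/SvJ background. The Lgr5-high cells carried Lgr5-EGFP-IRES-creERT2 on a C57BL/6J background. All animals were 3 to 6 months old, and no treatment other than the preparation and sorting of single cells is named. Genotype, strain and sorted population therefore change together between the groups and cannot be told apart. In such a reporter cross, membrane GFP marks cells in which Cre has acted together with their descendants, so a labelled cell need not express Flattop at the time of the sort. The sort gates are not used here. The labels do not say that each replicate is another animal, and a p-value here reflects array-to-array spread that could be technical in part.

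Goblet cells are secretory cells of the intestinal epithelium that arise in the crypt under the factor Atoh1 and move up the villus. They store and release Muc2, a very large mucin that polymerises through disulphide bonds into the gel covering the epithelium. The other proteins travel with this gel or are needed to make it: Fcgbp is built from von Willebrand factor type D domains and is bound into it, Clca1 is a protease that processes it, Zg16 is a lectin-like protein that binds bacterial cell wall, and Agr2 is a disulphide isomerase family protein of the endoplasmic reticulum needed to produce Muc2. Tff3 is a trefoil peptide of epithelial repair, Spink4 a Kazal-type protease inhibitor and Klk1 tissue kallikrein, a serine protease that releases kinins. Bcas1 encodes an intracellular protein best known from oligodendrocytes that is also used as a goblet cell marker.

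Promoters of 4 of the 9 genes were held in the RefSeq table used here (build GRCm38.p6), those of Muc2, Fcgbp, Klk1 and Agr2. The 250 bases before the start site are shown for the gel former Muc2 and the gel protein Fcgbp, which both rose in the Flattop arrays, and for Agr2, which did not pass the test. All are on the plus strand, at chr7:141690090-141690339 for Muc2, chr7:28070986-28071235 for Fcgbp and chr12:35992675-35992924 for Agr2. Capitals mark matches, on either strand, to any of 8 motifs. The core of the TATA box was read as TATAA, and the site of GATA factors as AGATAA. Sites of the gut factors FOXA and CDX2 were read as TGTTTNC for the former and as TTTATNG for the latter. The goblet cell factors SPDEF and KLF were read by CCGGAT for the first and by CCACCC for the other. The E-box bound by basic helix-loop-helix factors was read as CAGCTG, and the core of the site for XBP1, a factor of the secretory pathway, as ACGTG.
Muc2: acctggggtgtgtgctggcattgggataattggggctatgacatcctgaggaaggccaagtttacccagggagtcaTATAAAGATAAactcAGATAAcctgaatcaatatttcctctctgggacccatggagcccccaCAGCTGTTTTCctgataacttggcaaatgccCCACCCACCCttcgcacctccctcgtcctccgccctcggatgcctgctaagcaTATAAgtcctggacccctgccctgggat
Fcgbp: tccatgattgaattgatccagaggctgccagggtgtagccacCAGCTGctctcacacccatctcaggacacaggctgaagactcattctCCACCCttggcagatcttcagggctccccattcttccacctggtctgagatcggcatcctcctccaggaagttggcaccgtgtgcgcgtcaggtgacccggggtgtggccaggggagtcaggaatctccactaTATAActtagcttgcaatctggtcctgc
Agr2: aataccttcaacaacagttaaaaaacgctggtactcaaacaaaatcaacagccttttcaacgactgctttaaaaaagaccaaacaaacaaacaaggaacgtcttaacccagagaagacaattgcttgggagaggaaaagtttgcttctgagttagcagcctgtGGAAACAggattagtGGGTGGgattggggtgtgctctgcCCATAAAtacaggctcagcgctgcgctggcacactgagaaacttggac
Muc2 and Fcgbp each held TATAA with its first base 28 bases before the start, and Muc2 held it again 174 bases before the start. Of 32851 promoters of this length, 22.8% held TATAA at any place. The KLF motif CCACCC was found in all 4 member promoters and in 28.1% of all promoters, with 2 overlapping matches in Muc2, and CAGCTG in Muc2 and Fcgbp and in 13.0% of all promoters. The FOXA motif was found in Muc2, where it overlaps CAGCTG, and in Agr2 (17.8% of all), the GATA motif in Muc2 (9.99% of all) and the CDX2 motif in Agr2 (9.81% of all). The SPDEF and XBP1 motifs had no match in these 4 windows, and 4.94% and 16.6% of all promoters held them. These matches describe letters in the windows, and binding was not measured.

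Mucus genes were higher in the Flattop arrays. Of the 9 genes, 7 rose by the limma test over all genes with Benjamini-Hochberg adjustment at 0.05 (Muc2, Fcgbp, Clca1, Zg16, Spink4, Klk1 and Bcas1), where 0.902% of all genes were called higher. The probe set of Bcas1 was picked through its Flattop values, as described below. Tff3 and Agr2 were higher by 1.03 and 0.88 and missed the threshold. In all 9 genes every Flattop array read above every Lgr5-high array, as in 2.01% of all genes. The median difference over the 9 genes was 1.25 on the log2 scale, against -0.06 over all genes, of which 38.4% had a difference above 0. It was 1.64 within title numbers 1 to 8 and 0.87 within 38 to 46. The genes were chosen with earlier results of these data known, and so these counts are a description. The number of mucus genes called fell to 0 within title numbers 38 to 46, to 3 within title numbers 1 to 8, and to 4 after a second quantile normalisation. With 1 array left out it was 2 without Flattop replicate 2, 3 without Flattop replicate 1 or Lgr5-high replicates 3 or 4, 4 without Flattop replicate 4 or Lgr5-high replicates 2 or 6, and at most 7 without any other. In sorted populations measured in bulk, more goblet cells and more mucus RNA per cell cannot be told apart.

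**Figure D1:**
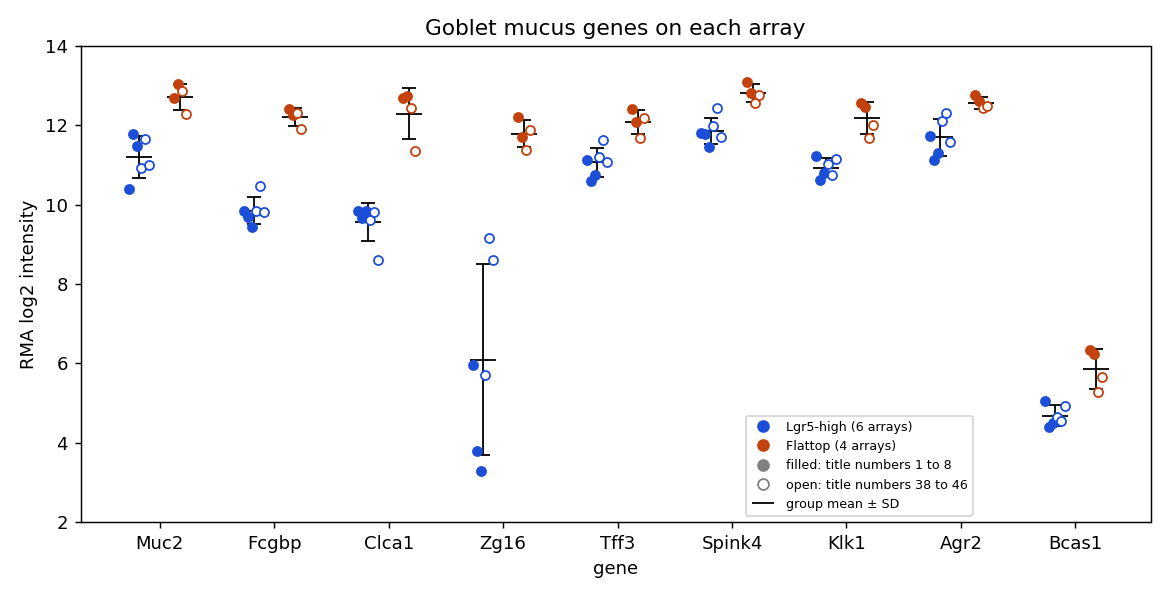
RMA log2 intensity (vertical axis) of the 9 mucus genes (horizontal axis) on each array, blue for 6 Lgr5-high and orange for 4 Flattop arrays, with the group mean and SD in black; filled points are title numbers 1 to 8 and open points 38 to 46. All Flattop points lie above all Lgr5-high points in each gene, and the Lgr5-high points of Zg16 spread from 3.28 to 9.15.

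All values are RMA log2 intensities, so a difference of 1 is a doubling of signal, and levels of different genes are not set against each other. Array medians lay between 4.56 and 4.77 and lower quartiles between 3.59 and 3.84. No detection calls were used. The marker genes of the 2 sorts did not pass the test. Lgr5 was lower in the Flattop arrays, at -1.10 (limma adjusted p = 0.533), and Cfap126 higher, at 0.43 (limma adjusted p = 0.678). Lgr5 read 9.19 and 9.65 in Flattop replicates 1 and 2, within the 8.99 to 9.90 of the Lgr5-high arrays. It read 6.44 and 8.21 in Flattop replicates 3 and 4. Cfap126 read 4.67 and 4.93 in Flattop replicates 1 and 2, within the 4.56 to 5.59 of the Lgr5-high arrays. In Flattop replicates 3 and 4 Cfap126 read 6.20 and 5.89, above that range. Within title numbers 1 to 8 its difference was negative. Reporter cassettes at these loci were not examined.

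Muc2 (Entrez gene 17831) read 12.69, 13.03, 12.86 and 12.28 in Flattop replicates 1 to 4. In the Lgr5-high arrays it ranged from 10.39 in replicate 1 to 11.79 in replicate 2, with a median of 11.24. The stem cell arrays thus carried clear Muc2 signal far above the array medians, and the lowest Flattop array lay 0.49 above the highest Lgr5-high array. The mean was 12.72 ± 0.33 (SD, n = 4) against 11.21 ± 0.53 (SD, n = 6), a rise of 1.51 (SE 0.27, limma adjusted p = 0.0313), or 2.85-fold (95% interval 1.87 to 4.34). With every probe set tested on its own, where 0.88% were called higher, the other Muc2 probe set rose by 2.03 (SE 0.25, limma adjusted p = 0.00301). Its mean was 10.60 in the Lgr5-high and 12.63 in the Flattop arrays. Muc2 missed the threshold without Flattop replicates 1, 2 or 3 or Lgr5-high replicates 3, 4 or 6, each left out alone (adjusted p 0.0542 to 0.104), and after a second quantile normalisation (0.0762). The same held with the replicate number as a block (0.107), within title numbers 1 to 8 (0.391) and within 38 to 46 (0.247). Muc2 was called in 11 of 21 alternatives.

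Fcgbp (Entrez gene 215384) had the smallest p of the 9 genes. Flattop replicates 1 to 4 read 12.42, 12.25, 12.32 and 11.90, and the Lgr5-high arrays 9.45 to 10.46 with a median of 9.83. The groups were 1.44 apart at their nearest arrays. Fcgbp rose by 2.37 (SE 0.19, limma adjusted p = 0.000162), with means of 9.85 ± 0.33 (SD, n = 6) and 12.22 ± 0.23 (SD, n = 4), a 5.17-fold change (95% interval 3.87 to 6.91). It was called in 20 of 21 alternatives and missed the threshold within title numbers 38 to 46 (adjusted p = 0.0807).

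Clca1 (Entrez gene 23844), the gel-processing protease, also rose with a wide gap between the groups. It read 12.68, 12.73, 12.43 and 11.35 in the Flattop arrays. The Lgr5-high arrays lay between 8.60 and 9.83 with a median of 9.75. Flattop replicate 4 was the low array of its group and Lgr5-high replicate 6 of the other, and the groups were still 1.51 apart. The rise was 2.74 (SE 0.32, limma adjusted p = 0.00206), with means of 9.56 ± 0.48 (SD, n = 6) and 12.30 ± 0.65 (SD, n = 4), or 6.66-fold (95% interval 4.09 to 10.9). It was called in 20 of 21 alternatives, the exception being title numbers 38 to 46 (adjusted p = 0.186).

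Zg16 (Entrez gene 69036) showed the largest difference of the 9 and by far the widest spread among stem cell arrays. The Flattop arrays were close together at 12.20, 11.72, 11.38 and 11.88. The Lgr5-high replicates 1 to 6 read 5.97, 3.81, 3.28, 5.71, 9.15 and 8.61. Replicates 2 and 3 lay under the lower quartile of their own arrays, whereas replicates 5 and 6 lay far above the array medians. The rise was 5.70 (SE 1.07, limma adjusted p = 0.0354), with means of 6.09 ± 2.41 (SD, n = 6) and 11.79 ± 0.34 (SD, n = 4), and the 95% interval of its 52.1-fold change ran from 10.1 to 269. With dim values in the stem cell arrays the size of this fold is uncertain. Zg16 was at 7.60 within title numbers 1 to 8 (adjusted p = 0.0317) and 3.80 within 38 to 46 (adjusted p = 0.340). The call held without Lgr5-high replicate 5 or 6 and was lost without any 1 of the other 8 arrays (adjusted p 0.0542 to 0.102).

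Spink4 (Entrez gene 20731), the protease inhibitor, read 13.10, 12.81, 12.57 and 12.76 in the Flattop arrays and 11.45 to 12.43 in the Lgr5-high arrays, with a median of 11.80. The gap between the groups was only 0.14, to Lgr5-high replicate 5. Spink4 rose by 0.95 (SE 0.19, limma adjusted p = 0.0449), with means of 11.86 ± 0.33 (SD, n = 6) and 12.81 ± 0.22 (SD, n = 4). The call was lost in 16 of 21 alternatives, among them the removal of any single array other than Lgr5-high replicate 5 (adjusted p 0.0542 to 0.120, against 0.0137 without Lgr5-high replicate 5).

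Tff3 (Entrez gene 21786) read 12.42, 12.08, 11.69 and 12.19 in the Flattop arrays. The Lgr5-high arrays ranged from 10.60 to 11.63 with a median of 11.10. The groups came within 0.07 of each other, at Flattop replicate 3 and Lgr5-high replicate 5. The difference of 1.03 (SE 0.21) missed the limma threshold (adjusted p = 0.0551), and its 95% interval was 0.57 to 1.50. It passed without Flattop replicate 3 (adjusted p = 0.0380), without Lgr5-high replicate 5 (0.0289), with dim genes left out (0.0478) and with array weights (0.0477).

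Klk1 (Entrez gene 16612) was at 12.56, 12.46, 11.69 and 12.01 in the Flattop arrays and at 10.62 to 11.22 in the Lgr5-high arrays, with a median of 10.92. The groups were 0.47 apart. Klk1 rose by 1.25 (SE 0.20, limma adjusted p = 0.0130), with means of 10.93 ± 0.24 (SD, n = 6) and 12.18 ± 0.40 (SD, n = 4). Leaving out Flattop replicate 2 ended the call (adjusted p = 0.0541). The call was also lost with the replicate number as a block (0.152), within title numbers 1 to 8 (0.0956) and within 38 to 46 (0.268). It held in 17 of 21 alternatives. Klk1 has many close relatives in a gene cluster, and probes may detect more than 1 of them. Among 11 Klk1b genes with a probe set of their own, differences lay between -0.43 and 0.72. The highest was Klk1b5, at 8.35 in Flattop and 7.63 in Lgr5-high arrays, while no array read above 5.50 for any of the others.

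Agr2 (Entrez gene 23795), the folding factor for Muc2, had the smallest difference of the 9. It read 12.76, 12.60, 12.42 and 12.50 in the Flattop arrays. The Lgr5-high arrays ranged from 11.13 to 12.31 with a median of 11.66, and the highest of them, replicate 5, came within 0.12 of the Flattop arrays. The difference of 0.88 (SE 0.23) missed the limma threshold (adjusted p = 0.148), with a 95% interval of 0.38 to 1.38. Agr2 was called in 0 of 21 alternatives (adjusted p 0.0752 to 0.738).

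Bcas1 (Entrez gene 76960) was dim, and its 2 probe sets disagreed. The probe set used read 6.34, 6.23, 5.27 and 5.65 in the Flattop arrays and 4.39 to 5.06 in the Lgr5-high arrays, with a median of 4.61, close to the array medians. The groups were 0.21 apart. It rose by 1.19 (SE 0.23, limma adjusted p = 0.0374), with means of 4.68 ± 0.26 (SD, n = 6) and 5.87 ± 0.50 (SD, n = 4). The other probe set read 5.07 ± 0.12 (SD, n = 4) and 4.84 ± 0.33 (SD, n = 6), its groups overlapped, and its difference of 0.24 did not pass (limma adjusted p = 0.684). In the Lgr5-high arrays that other probe set was the brighter one. The choice by the mean over all arrays thus rested on the Flattop values, and the call of Bcas1 is not independent of it. With the mean of both probe sets the difference was 0.71 (adjusted p = 0.144), and the call ended with arrays centred on their medians (0.0581). The call also ended when any array other than Flattop replicate 3 or Lgr5-high replicate 1 was left out (adjusted p 0.0640 to 0.121).

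**Figure D2:**
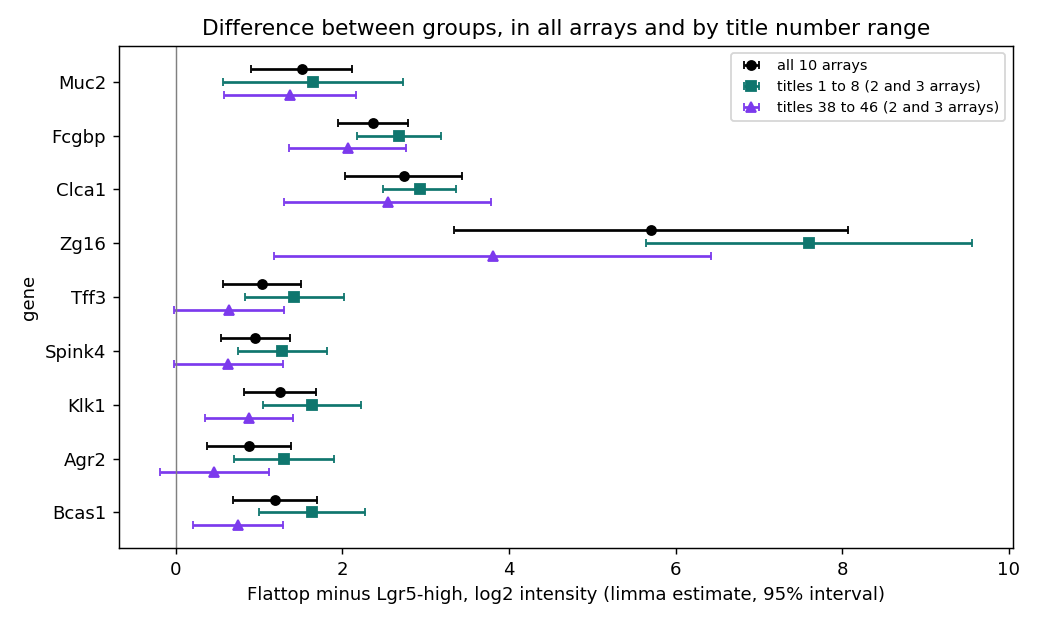
Flattop minus Lgr5-high difference of each mucus gene in log2 intensity (horizontal axis), as limma estimates with 95% intervals over all 10 arrays (black), title numbers 1 to 8 (green) and title numbers 38 to 46 (purple), the last 2 with 2 Flattop and 3 Lgr5-high arrays each. Every estimate is above 0, the intervals of Agr2, Tff3 and Spink4 within 38 to 46 reach below 0, and Zg16 lies at 5.70 over all arrays.

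The numbers in the sample titles fall into 1 to 8 and 38 to 46 in both groups, and the labels do not say whether they mark batches. All 9 differences were smaller within 38 to 46 than within 1 to 8. Agr2 was at 1.29 and 0.46, Tff3 at 1.42 and 0.64, Spink4 at 1.28 and 0.63, and Bcas1 at 1.64 and 0.74. Muc2 was at 1.65 and 1.37, Fcgbp at 2.68 and 2.06, and Clca1 at 2.93 and 2.54. Within 1 to 8 the genes called were Clca1, Fcgbp and Zg16, with 0.347% of all genes called higher, and within 38 to 46 there were 0, with 0.338% of all genes called higher (limma). The change of the difference between the ranges did not pass for any of the 9 genes (limma interaction adjusted p 0.634 to 0.915, where 0.00902% of all genes were called), and 3 of the 9, Zg16, Klk1 and Bcas1, had an unadjusted p under 0.05, as did 7.39% of all genes. With the title range as a block, where 0.965% of all genes were called higher, the calls for Muc2, Fcgbp, Clca1, Zg16, Klk1 and Bcas1 held, and Spink4 missed the threshold (adjusted p = 0.0600).

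Within a group, some arrays were high or low for several of the 9 genes. Flattop replicate 1 was the highest Flattop array for 7 of the 9 genes and Flattop replicate 3 the lowest for 6. Among the stem cell arrays, Lgr5-high replicate 5 was highest for 5 genes, Agr2, Tff3, Spink4, Fcgbp and Zg16, and Lgr5-high replicate 2 was lowest for 4. Muc2 departed from this order in part: it was highest in Lgr5-high replicate 2 and lowest in replicate 1, which was highest for Klk1 and Bcas1. In Lgr5-high replicate 5 Muc2 read 11.66, above its group mean. The mean over the 9 genes was 11.91, 11.77, 11.40 and 11.39 in Flattop replicates 1 to 4 and ran from 9.20 to 10.31 in the Lgr5-high arrays. These genes share arrays and RNA, and so their joint order within a group is 1 observation per array.

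Whether a gene moved by another amount than Muc2 was examined from its difference to Muc2 on each array, in 8 comparisons. The exact permutation p-values given for them are not adjusted for this number. For Zg16 this difference lay between -1.48 and -0.40 in the Flattop arrays and between -8.20 and -2.39 in the Lgr5-high arrays, with no overlap. Zg16 therefore gained 4.19 on Muc2 (SE 0.74, limma adjusted p = 0.000285), with an exact two-sided permutation p = 0.00952, the smallest that 210 splits of the arrays allow. The limma SE and p of these comparisons can look too firm, for a reason given below. The gain was 3.67 against the other Muc2 probe set, with the same exact permutation p. Clca1 gained 1.23 (limma adjusted p = 0.00425, exact permutation p = 0.0190) and Fcgbp 0.86 (limma adjusted p = 0.0325, exact permutation p = 0.0286). Against the other Muc2 probe set these fell to 0.70 and 0.34, and neither passed (limma adjusted p = 0.0752 and 0.343, exact permutation p = 0.105 and 0.257). The gain of Fcgbp was also lost without Flattop replicates 1, 3 or 4 or Lgr5-high replicates 2 or 3 (adjusted p 0.0606 to 0.0941).

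The remaining genes were lower than Muc2 in their difference without passing: Agr2 by -0.63 (95% interval -1.45 to 0.19), Spink4 by -0.56 (-1.33 to 0.22), Tff3 by -0.48 (-1.29 to 0.34), Bcas1 by -0.32 (-1.15 to 0.51) and Klk1 by -0.26 (-1.08 to 0.57). Against the other Muc2 probe set, Agr2, Spink4, Tff3 and Bcas1 did pass the limma test (-1.16, -1.08, -1.0 and -0.84, adjusted p 0.00534 to 0.0379). Their exact permutation p was 0.0286 for Agr2, 0.00952 for Spink4, whose groups did not overlap, 0.0381 for Tff3 and 0.0952 for Bcas1, whose groups overlapped. In this fit every gene carries the rise of Muc2, 93.6% of genes were called in either direction, and the adjustment hardly raises a p. Limma draws each SE on the spread of all genes, and here all of them share the Muc2 values. The SE and unadjusted p can therefore look firmer than 10 arrays allow. For Zg16 the SE was 0.74 here and 1.07 in the main fit, though its Lgr5-high SD was 2.55 here and 2.41 there.

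In the lists of related genes that follow, the counts stand beside 0.902% of all genes called higher and 0.0135% called lower. Of 19 further secreted and surface genes of goblet cells, 2 rose and 0 fell. Their median difference was 1.38 over all arrays, 1.49 within title numbers 1 to 8 and 0.44 within 38 to 46. Ccl6, a chemokine, rose by 4.10 (limma adjusted p = 0.00564), with means of 4.76 ± 1.03 (SD, n = 6) and 8.86 ± 0.94 (SD, n = 4). Guca2a, the guanylin hormone that acts on salt and water transport, rose by 1.47 (limma adjusted p = 0.0136) and was called in 17 of 21 alternatives, missing the threshold without Flattop replicate 2 (0.0548). The angiogenin Ang4, also a Paneth cell product, was at 2.46 (adjusted p = 0.126) and the mucin glycosyltransferase Gcnt3, which the list of O-glycosylation genes holds too, at 1.92 (adjusted p = 0.124). Ccl6 is made by myeloid cells as well.

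None of 15 transcription factors of the goblet and secretory lineage passed limma over all genes, while 9 were above and 0 below with an unadjusted p of less than 0.05, beside 5.98% of all genes above and 3.8% below. Their median difference was 0.55 over all arrays, 0.94 within title numbers 1 to 8 and 0.32 within 38 to 46. Klf4, needed for goblet cell maturation, was at 1.44 (adjusted p = 0.0531), Spdef, a driver of goblet differentiation, at 0.88 (adjusted p = 0.112) and Atoh1 at 1.80 (adjusted p = 0.309). Atoh1 read 9.56, 8.57, 6.85 and 8.05 in Flattop replicates 1 to 4 and 4.65 to 7.61 in the Lgr5-high arrays, and so its groups overlapped. Creb3l1, a membrane-bound factor of secretory cells, was at 1.35 (adjusted p = 0.0658).

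The machinery that folds and exports secreted protein had 4 genes that rose and 0 that fell among 28, with a median of 0.55 over all arrays, 0.88 within title numbers 1 to 8 and 0.26 within 38 to 46. Sec24d, a coat protein of vesicles leaving the endoplasmic reticulum, rose by 2.38 (limma adjusted p = 0.000405), and Ern2, the stress sensor of mucous epithelia, rose by 1.74 (adjusted p = 0.0422). The chaperones Dnajb11 and Dnajc3 rose by 0.78 and 1.25 (adjusted p = 0.0449 and 0.0465). In Flattop replicates 1 to 4 Sec24d read 6.38, 6.79, 7.44 and 7.17. That is the order of the lymphocyte list means given below (8.35, 8.92, 10.55 and 10.07). The mucus gene mean instead fell from replicate 1 to 4, as did Ern2 (9.21, 8.76, 7.70 and 7.47). Dnajb11 and Dnajc3 followed neither order. The part of other cells in the rise of Sec24d was not tested. Sec24d was called in 20 of 21 alternatives, Ern2 in 10, Dnajc3 in 7 and Dnajb11 in 3, with adjusted p up to 0.0759, 0.408, 0.447 and 0.587. Of 16 genes of granule release, 2 rose: the actin-severing protein Scin by 3.48 (adjusted p = 0.00262) and Sytl2, which tethers vesicles to the membrane, by 2.98 (adjusted p = 0.00647). Flattop replicate 4 read 6.02 for Sytl2, below the 7.45 to 8.34 of the remaining Flattop arrays.

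Among 30 genes of mucin O-glycosylation 1 rose, the sialyltransferase St3gal1, by 1.26 (adjusted p = 0.0192), where 0.902% of all genes were called higher. Of the 30, 11 were above and 0 below with an unadjusted p under 0.05, beside 5.98% of all genes above and 3.8% below. A difference above 0 was seen in 23 of them, beside 38.4% of all genes. St3gal1 read 6.82 in Flattop replicate 3 and 5.75 to 6.01 in the other Flattop arrays. Its order over the Flattop arrays was that of the lymphocyte list means given below. The mean of all 30 genes was instead lowest in Flattop replicate 3 (6.44). The part of other cells in the rise of St3gal1 was not tested. The list median was 0.44, and St3gal1 missed the threshold in 5 of 21 alternatives, among them the removal of Flattop replicate 4 (0.0512). Of 13 genes of mucus crosslinking, cleavage and ion transport 3 rose: the anion exchanger Slc26a6 by 1.96 (adjusted p = 0.00144), the sodium-proton exchanger Slc9a3 by 1.28 (adjusted p = 0.0198) and the protease Mep1b by 2.28 (adjusted p = 0.0451). Mep1b read 4.24 in Flattop replicate 3 and 6.68 to 6.77 in the other Flattop arrays, and it was called in 8 of 21 alternatives (adjusted p up to 0.624). Slc26a6 was called in 19 of them and Slc9a3 in 13. All are products of absorptive enterocytes as well. Of 8 membrane mucins, which are anchored to the cell and form no gel, 0 rose and Muc4 fell by 0.77 (adjusted p = 0.0349), with a list median of -0.12. Muc1, Muc15, Muc16 and Gm9573 had means under the array medians in both groups, and so the list median says little. Of the brighter genes, Muc3 was at 0.84, Muc13 at 0.26 and Muc3a at -0.25 without passing (adjusted p = 0.312, 0.678 and 0.898). The call of Muc4 held in 7 of 21 alternatives (adjusted p up to 0.414).

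Markers of other cells moved with the mucus genes. Of 17 Paneth cell markers 7 rose (median 3.04), of 19 enterocyte markers 9 (median 2.29), of 19 enteroendocrine markers 6 (median 1.30) and of 12 lymphocyte markers 11 (median 5.15, being 4.0 within title numbers 1 to 8 and 6.17 within 38 to 46). All 17 stem cell markers had a difference under 0, with 0 called (limma). Of these, 10 had an unadjusted p under 0.05, beside 3.8% of all genes lower at that level. Their median was -0.74 over all arrays, -0.21 within title numbers 1 to 8 and -1.06 within 38 to 46. Of 13 tuft cell markers 0 were called or had an unadjusted p under 0.05. Mean levels of the lymphocyte list were 8.35, 8.92, 10.55 and 10.07 in Flattop replicates 1 to 4 and 4.44 to 4.89 in the Lgr5-high arrays. The defining T cell gene Cd3g read 9.18 to 11.02 in the Flattop arrays and 3.35 to 3.88 in the Lgr5-high arrays, the latter under the array medians. Paneth cell list means were 9.94 to 10.96 against 7.14 to 8.44, and enterocyte list means 8.83 to 9.94 against 6.50 to 7.17. Flattop replicate 3 had the highest lymphocyte mean and the lowest Paneth cell, enterocyte and enteroendocrine means of its group. The part of these other cells in the mucus gene differences was not tested.

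**Figure D3:**
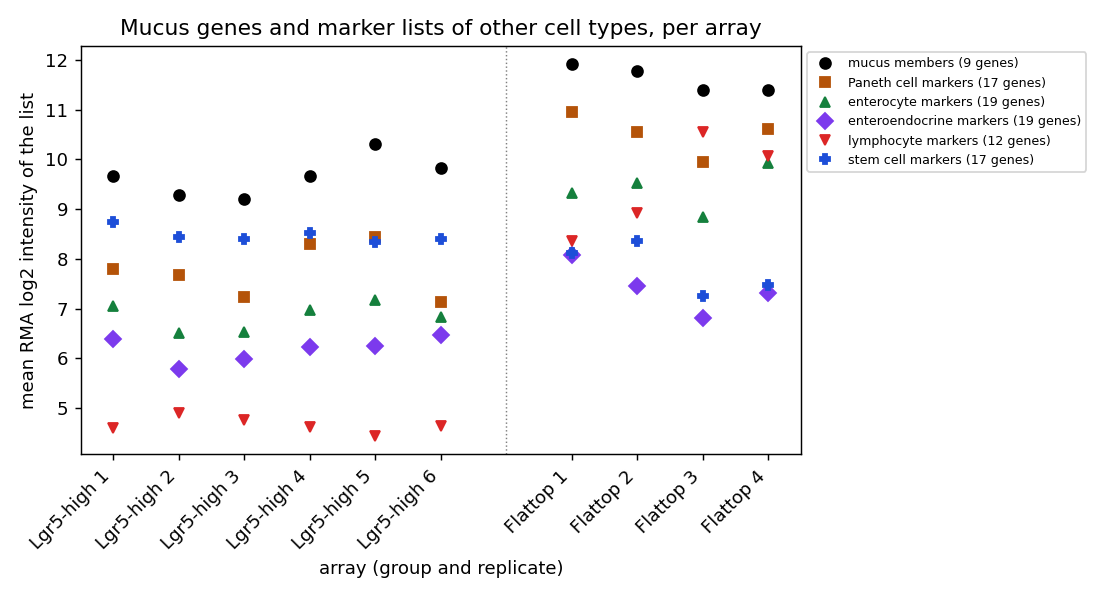
Mean RMA log2 intensity of the 9 mucus genes and of 5 marker lists (vertical axis) on each array, Lgr5-high replicates 1 to 6 on the left and Flattop replicates 1 to 4 on the right. The mucus, Paneth cell, enterocyte, enteroendocrine and lymphocyte lists are higher in every Flattop array, while the mucus mean is highest in Flattop replicate 1 and the lymphocyte mean in Flattop replicate 3.

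Genes with the nearest profile were sought by the root mean square distance of centred log2 values over the 10 arrays, as a description. Nearest to the mean of the 9 mucus genes were Gcg, the proglucagon hormone gene of enteroendocrine L cells (distance 0.32), the alpha-defensin Defa40 (0.35), Cgref1 (0.35), Guca2a (0.37) and Lrrc26 (0.37), where the profile itself had a root mean square of 1.01. Of the 9 genes Fcgbp lay closest to that mean (0.25) and Zg16 farthest (2.34). Defa40 has near-identical relatives, and so the copy measured is uncertain. Nearest to Muc2 were Gm5914 (0.37), Creb3l1 (0.37), the fatty acid transporter Slc27a4 (0.40), Tbc1d30 (0.41) and the lymphocyte transcription factor Ikzf1 (0.43). Of the other mucus genes Spink4 was nearest (0.54). The search covered every gene outside the 9, and so a closer gene among so many says nothing on how alike the mucus genes are. The distance was not scaled and also reflects the size of the group difference. For Zg16, in a search chosen after its values were seen, the nearest were Reg3g (1.40), Sis (1.48), Lyz1 (1.50), Reg1 (1.57) and Clec2h (1.58). Of the mucus genes Fcgbp was nearest to Zg16 (2.24), with the same limit on the comparison. Reg3g, an antibacterial lectin, read 8.03 in Lgr5-high replicate 5 and 8.04 in replicate 6, and 3.58 to 6.90 in replicates 1 to 4. Zg16 and Reg3g were both highest among the stem cell arrays in replicates 5 and 6. As Reg3g was picked for its nearness to Zg16 on these arrays, this likeness follows in part from the choice. In Lgr5-high replicate 4, Reg3g had its lowest value of 3.58, whereas Zg16 read 5.71.

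**Figure D4:**
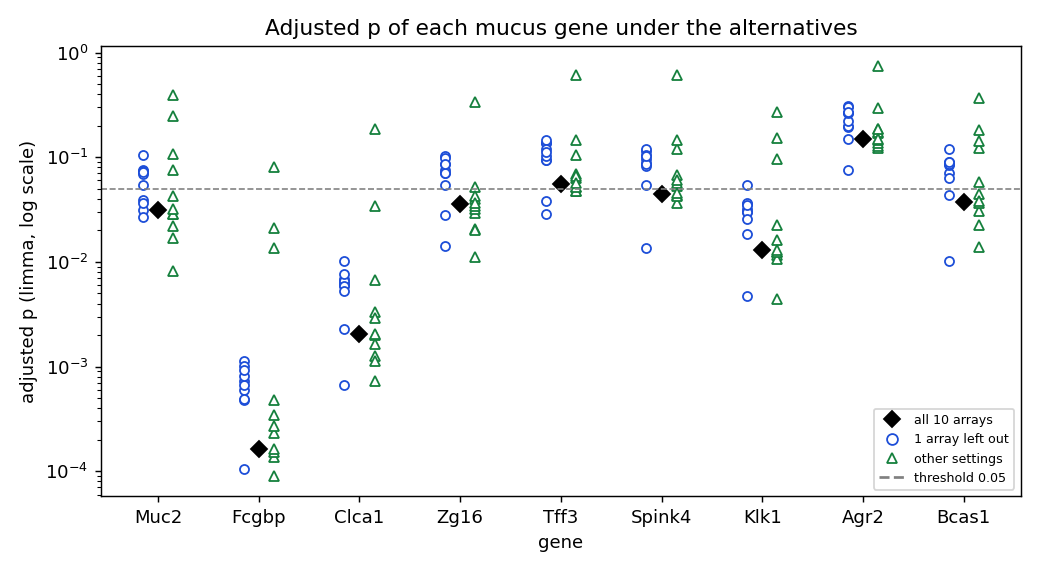
Adjusted p (limma, log axis) of each mucus gene over all 10 arrays (black diamonds), with 1 array left out (blue circles) and under other settings (green triangles); the dashed line is the threshold of 0.05. Fcgbp and Clca1 lie under the line in 20 of 21 alternatives, and Agr2 in 0.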

How the data were processed

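RNA of sorted cells, amplified with the Ovation Pico WTA System V2 and hybridised to 10 MoGene 2.0 ST arrays, was measured per the labels. The authors deposited log2 intensities for each probe set from RMA in oligo 1.38.0, per the submitters' processing notes; RMA corrects background, normalises between arrays and summarises probes. Of 41345 probe sets, 23521 had 1 gene symbol, which gave 22180 genes. Groups were compared with limma 3.58.1 in R 4.3.3, by two-sided tests whose p-values were adjusted over the whole table (Benjamini-Hochberg); gene minus Muc2 and the group by title range interaction were fitted likewise. Precision is limited by the number of arrays. The fit was tested on simulated data. Members and lists were chosen with earlier results of these data known. Beside the 9 genes, the text names up to 4 genes of smallest p per list and the 5 nearest profiles. Klk1b5, the neighbours of Zg16 and the further membrane mucins were chosen after their values were seen. Plots used matplotlib 3.10.9.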

Additional observations from a re-analysis of the deposited data

Results flagged for a closer look

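Clca1 in Lgr5-high replicate 6 read 8.60, apart from the other 5 Lgr5-high arrays, which lay between 9.61 and 9.83. It was the 1 value of 18 gene and group combinations set apart by Dixon's test, where chance sets apart about 1 in 20. Without that array Clca1 remained called (limma adjusted p = 0.00229) with a difference of 2.54.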

How the results depend on the processing

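All 9 mucus genes stayed higher in the Flattop arrays in all 21 alternatives, from 0.46 upward (Agr2 within title numbers 38 to 46), and the calls varied. Over all genes 203 were called, 200 higher and 3 lower. With the replicate number as a block there were 57 (0.257% of all genes), with 0 lower, and 3 of the 9 mucus genes (Zg16, Fcgbp and Clca1). Of the 4 same-numbered pairs, 1 deviated together (number 1, r = 0.30) and 3 did not (r from -0.21 to 0.03), and so the numbers were not taken to pair the samples. Within title numbers 1 to 8 there were 77, with 0 lower, and 3 mucus genes, and within 38 to 46 there were 85, of which 75 higher and 10 lower, and 0 mucus genes; both used fewer arrays. A second quantile normalisation gave 16 lower and 4 mucus genes, the title range block 6 lower, a threshold of 0.1 gave 311 with 19 lower, and a minimum of 2-fold 1 lower. With 1 array left out there were 123 to 215 genes, 118 to 211 higher and 1 to 5 lower, and 2 to 7 mucus genes. The interaction called 2 genes, 1 with arrays centred on their medians and 0 to 38 with 1 array left out. Some differences changed sign without passing. The interaction ranged from -0.56 to 0.15 for Muc2 and from -0.92 to 0.16 for Clca1 with 1 array left out, the signs turning without Flattop replicate 4 or, for Muc2, also without Lgr5-high replicate 1 (0.02 for Muc2 without Flattop replicate 4). With array weights, whose estimation stopped before its tolerance, Klk1 was at 0.052 and Bcas1 at 0.057 relative to Muc2. Within title numbers 1 to 8, Cfap126 was at -0.44, Alox5ap at 0.84 and Ltc4s at 0.11. The cause was not tested in any of these. Signal near the array medians limits Bcas1. Signal under the lower quartile of the array limits Zg16 in Lgr5-high replicates 2 and 3.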
